A study of Mus musculus with 2 samples.

Results

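The genes described here are 37 interferon-stimulated genes, RNA sensors and transcription factors of the interferon regulatory factor (IRF) and STAT families, chosen by name from 34745 genes in a deposited table of raw counts. All 37 were found in the table, and each had at least 1 count in both libraries. The table holds 1 RNA sequencing library of Cipc scKO gastrocnemius and 1 library of Cipc flox/flox gastrocnemius, a calf muscle, both from C57BL/6 mice aged 8 weeks. Cipc encodes a protein that binds CLOCK and restrains the circadian activator pair CLOCK and BMAL1. The scKO group is read from the series title as mice that lack Cipc in satellite cells, the stem cells of muscle, and the flox/flox mice carry the unrecombined loxP-flanked gene. The driver of the recombinase and the number of animals behind each library are not given in the sources used here. The title names dystrophic mdx mice, whereas the labels of both libraries name no mdx allele and no injury or treatment, so the state of the muscle with respect to mdx is not settled.

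Type I interferons act on a receptor made of IFNAR1 and IFNAR2, and type II interferon on one made of IFNGR1 and IFNGR2. Janus kinases bound to these receptors phosphorylate STAT factors, which enter the nucleus and bind target promoters at the interferon-stimulated response element, in a complex that includes STAT2 and IRF9, or at the gamma-activated site. The targets block viral entry, translation and replication, and several of them, among them the RNA sensors, IRF7 and STAT2, feed back on the pathway itself. Many are also expressed at a low basal level in healthy tissue.

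The scKO library held 13842100 counts and the flox/flox library 14727219. Each genotype is represented by 1 library, so every difference below compares the libraries and has no replicate check. Ratios are scKO over flox/flox after TMM scaling of the library sizes, given as log2 values with a 95% exact binomial interval in brackets that covers counting error only. Cipc had 111 counts in scKO and 658 in flox/flox, a log2 ratio of −2.51 (−2.82 to −2.22). This value is for whole muscle, and whether the loss of Cipc was confined to satellite cells was not tested. All 10 skeletal muscle markers were abundant, at 43.0 FPKM or more in scKO and 44.4 FPKM or more in flox/flox, and together took 12.7% of the scKO counts and 13.3% of the flox/flox counts. Of the cells known as sources or responders of interferon, 12 macrophage markers summed to 927 counts in scKO and 945 in flox/flox, with Aif1 at 0 in both and 1 interval above and 1 below 0 among the 10 with enough counts. Fibro-adipogenic progenitor markers, 7 in number, summed to 4769 counts in scKO and 5523 in flox/flox, with 4 of 7 intervals below 0 and none above. Endothelial markers, 10 in number, summed to 4643 counts in scKO and 4251 in flox/flox, with 3 of 10 intervals above 0 and none below. For comparison, 12.8% of intervals lay above 0 and 12.3% below among all 12662 genes with at least 20 summed counts. Among those with at least 1000 counts, the range of Dcn, Cd34, Cdh5 and Flt1, the shares were 23.1% above and 20.03% below. T and NK cell markers summed to 1 count in scKO and 10 in flox/flox over 10 genes, with Cd3e, Cd4, Cd8a and Ncr1 at 0 in both, and the 6 neutrophil markers summed to 3 and 2 counts in scKO and flox/flox. Of the plasmacytoid dendritic cell markers, Siglech had 9 counts in scKO and 3 in flox/flox, with an interval that includes 0 (1.49, −0.37 to 4.16), and Ccr9, Klk1 and Ly6d were at 0 in both; Cox6a2, also a muscle gene, had 8925 counts in scKO and 8229 in flox/flox. Ighm had 1717 counts in scKO and 772 in flox/flox, while the other 5 B cell markers had at most 7 counts in either library. The part of these cells in the values below was not tested, and in whole muscle a change in cell number cannot be told apart from a change in RNA per cell.

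Most of the 37 genes were expressed at a low level. On the deposited FPKM scale, which divides by gene length and so allows comparison between genes, 19 of the 37 lay under 1 FPKM in scKO and 20 in flox/flox, and 5 reached 5 FPKM in each library. The highest levels were those of Ifitm2, at 27.8 FPKM in scKO and 28.8 FPKM in flox/flox, and Ifitm3, at 23.3 FPKM in scKO and 14.6 FPKM in flox/flox. Both encode small membrane proteins that hinder the fusion of viruses with endosomes. Irf2, Bst2 and Irf3 followed at 6.31, 6.24 and 6.12 FPKM in scKO and 6.40, 6.31 and 5.18 FPKM in flox/flox. The 9 highest genes held the same ranks in both libraries. At the low end stood Dhx58, at 0.0660 FPKM in scKO and 0.0621 FPKM in flox/flox, and Ifi44, at 0.0577 FPKM in scKO and 0.0994 FPKM in flox/flox, levels that rest on 4 to 11 counts. Together the 37 genes had 3676 counts in scKO and 3735 in flox/flox, a log2 ratio of the sums of 0.03 (−0.04 to 0.09).

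**Figure D1:**
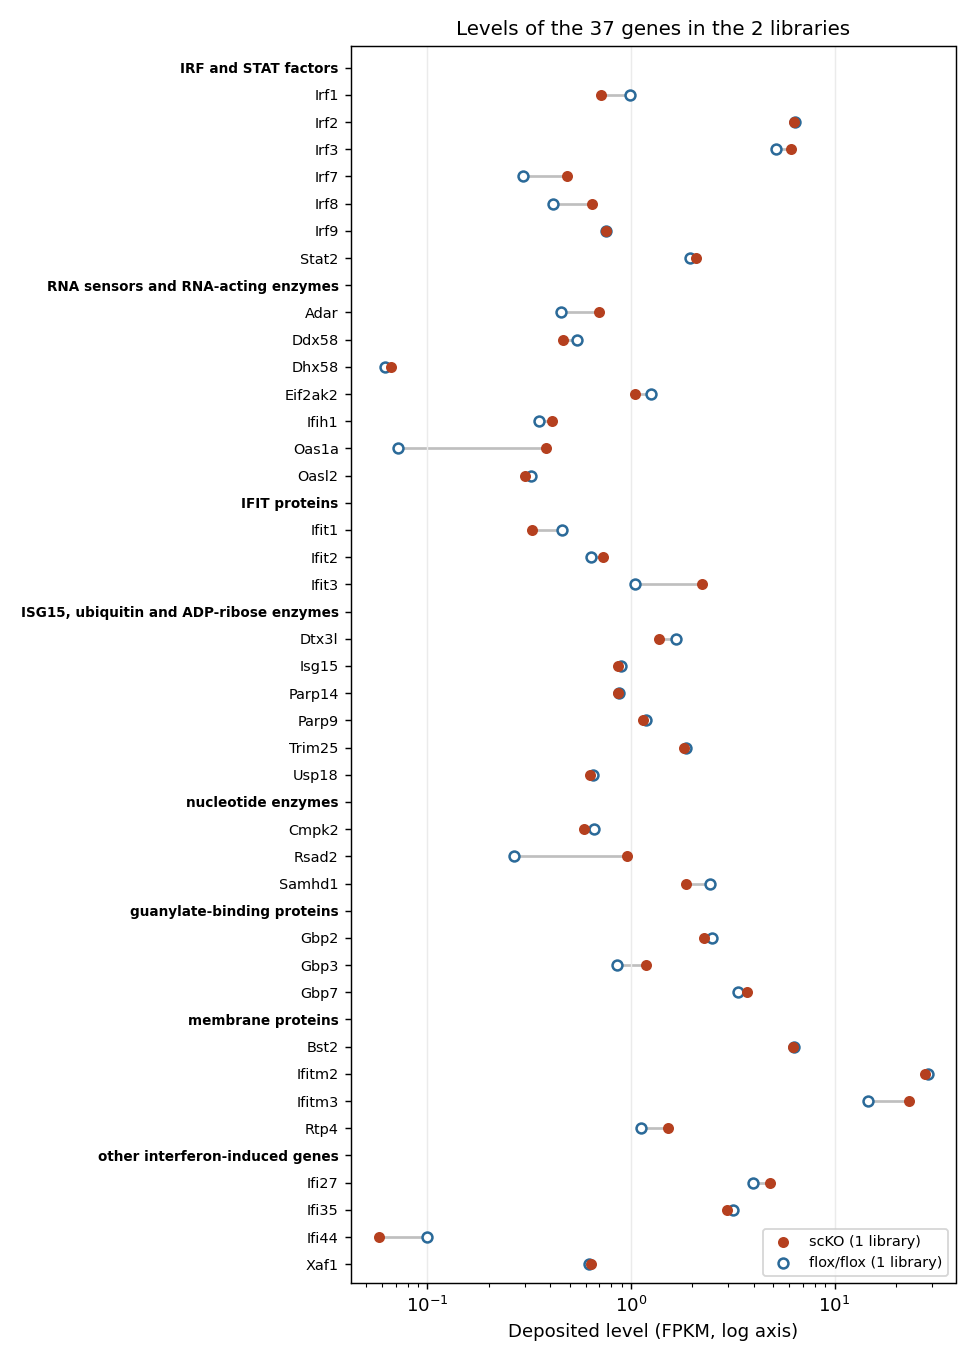
Level of each of the 37 genes on the deposited FPKM scale (x axis, logarithmic) in the scKO library (filled) and the flox/flox library (open), grouped by role; each point is 1 library, so there is no error bar. Ifitm2 and Ifitm3 stand above all other genes in both libraries, and the widest gaps between the libraries are those of Oas1a, which rests on 10 and 2 counts, and Rsad2.

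The scKO and flox/flox libraries differed in few of these genes. A gene is called tested here, meaning counted well enough to compare and with no p-value, where its counts in both libraries summed to at least 20, which held for 33 of the 37; Isg15, Dhx58, Oas1a and Ifi44 fell short. Of the 33, 2 were at least 2-fold higher in scKO with an interval above 0, Rsad2 and Ifit3, against 1.49% of 12662 tested genes. None was at least 2-fold lower, against 1.91% of all tested genes. Intervals lay above 0 for 5 of the 33 (Rsad2, Ifit3, Ifitm3, Irf8 and Adar), against 12.8% of all tested genes, and below 0 for 2 (Samhd1 and Irf1), against 12.3%. At a threshold of 1.5-fold, 4 genes were higher (Rsad2, Ifit3, Ifitm3 and Irf8) and none lower, against 3.47% and 4.12% of all tested genes. Low counts widen the spread: among tested genes with a summed count of 20 to 100, the share at least 2-fold higher was 4.57%, and 9 of the 33 genes, Rsad2 and Ifit3 among them, lie in that range. The other 24 genes had 100 to 1000 counts, a range in which 2-fold higher calls made up 0.634% of all tested genes and none of these 24 was called. The median log2 ratio of the 33 was −0.05, beside 0.002 for all tested genes, with 14 ratios above 0 and 19 below.

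**Figure D2:**
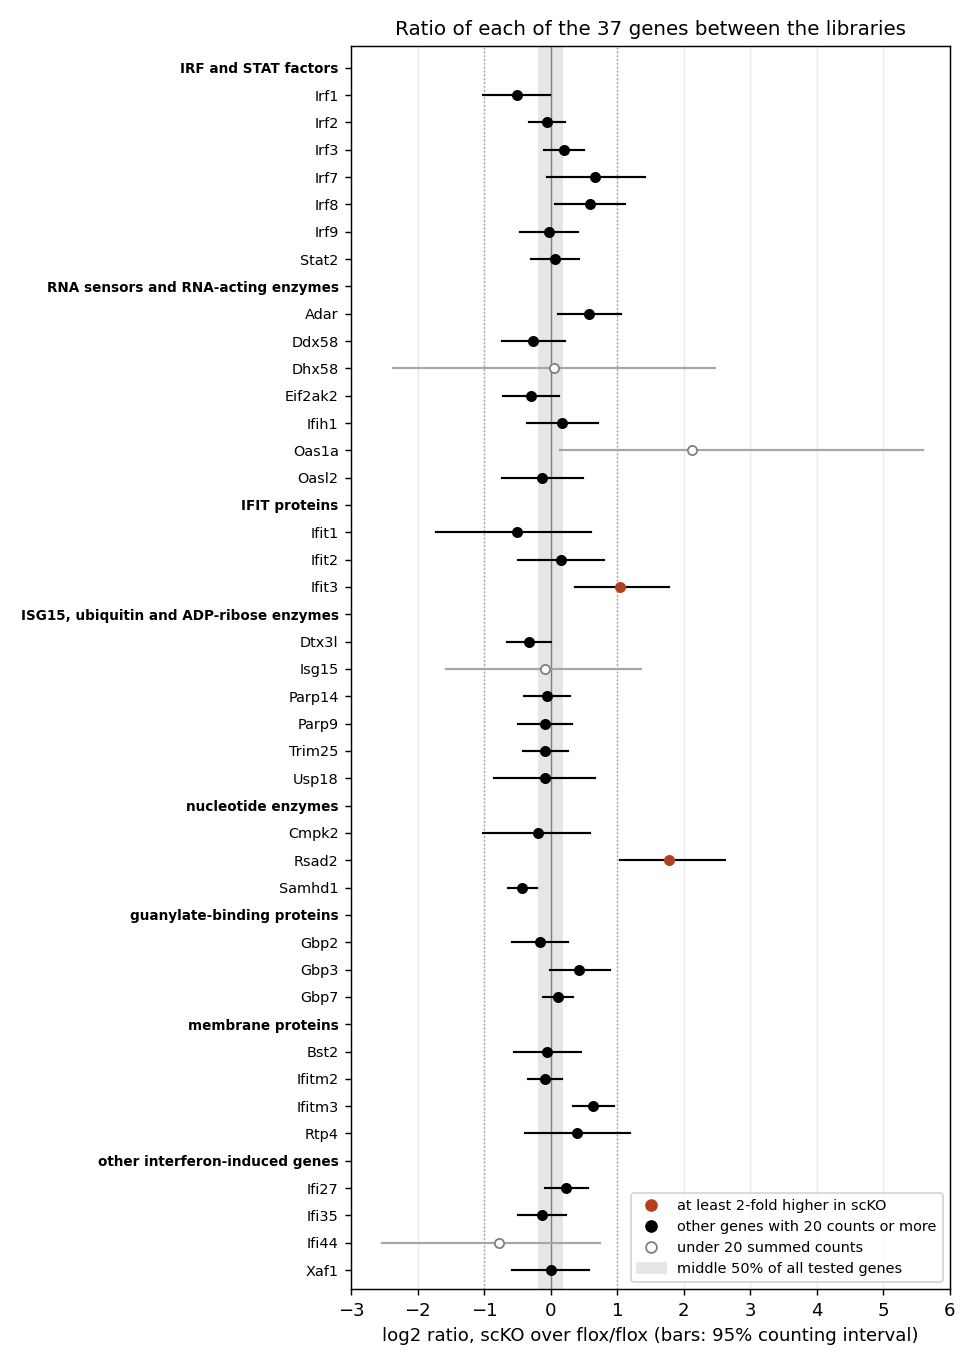
Log2 ratio of scKO over flox/flox for each of the 37 genes (x axis), with 95% intervals for counting error; the grey band holds the middle 50% of all tested genes and dotted lines mark 2-fold. Rsad2 and Ifit3 lie at or beyond the 2-fold line, open points had under 20 summed counts, and most other intervals include 0.

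Among the transcription factors, Irf8 was higher and Irf1 lower in scKO, and the subunits of the type I interferon response complex did not differ beyond counting error. Irf8, a factor of macrophages and dendritic cells, had 77 counts in scKO and 53 in flox/flox (log2 ratio 0.59, 0.07 to 1.12). Irf1, itself an early interferon target and an activator of others, had 57 counts in scKO and 84 in flox/flox (−0.50, −1.02 to −0.01). With total-count scaling the Irf1 interval included 0 (−0.98 to 0.03). Irf7, the master regulator of type I interferon genes, had 43 counts in scKO and 28 in flox/flox, with an interval that just included 0 (0.66, −0.05 to 1.41). Stat2 had 129 counts in scKO and 128 in flox/flox (0.06, −0.30 to 0.43), and its partner Irf9 had 90 in scKO and 95 in flox/flox (−0.03, −0.46 to 0.40). Irf3, which is activated by phosphorylation downstream of nucleic acid sensors, stood at 0.20 (−0.09 to 0.50) and Irf2, an antagonist of Irf1, at −0.06 (−0.33 to 0.21). The 3 factors with ratios beyond 0.5 in either direction, Irf1, Irf7 and Irf8, were all under 1 FPKM in both libraries.

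The sensors of viral RNA differed little. Ifih1 and Ddx58 encode MDA5 and RIG-I, cytoplasmic helicases that bind double-stranded RNA. Ifih1 had 64 counts in scKO and 59 in flox/flox (0.17, −0.36 to 0.70), and Ddx58 had 70 in scKO and 87 in flox/flox (−0.26, −0.74 to 0.21). Dhx58, the gene of their relative LGP2, had 4 counts in each library. Eif2ak2, the gene of the kinase PKR, which halts translation when it binds double-stranded RNA, had 85 counts in scKO and 108 in flox/flox (−0.29, −0.72 to 0.13). Adar, whose product edits adenosine to inosine in double-stranded RNA, was the one tested gene of the group with an interval above 0, on 95 counts in scKO and 66 in flox/flox (0.57, 0.11 to 1.05). Of its exon bases, 1365 of 8118 overlap Chrnb2 on the opposite strand; Chrnb2 had 3 counts in scKO and 6 in flox/flox. Oasl2, an oligoadenylate synthetase-like gene, had 45 counts in scKO and 51 in flox/flox (−0.13, −0.74 to 0.48). Oas1a, an oligoadenylate synthetase that activates RNase L, had 10 counts in scKO and 2 in flox/flox (2.12, 0.14 to 5.60), which is under the minimum to be tested although the interval lies above 0. It shares 57.6% of its 50-base stretches with Oas1g, and the pair summed to 10 counts in scKO and 3 in flox/flox, with an interval that included 0 (1.64, −0.17 to 4.29).

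Of the IFIT genes, whose proteins bind foreign RNA ends and translation factors, Ifit3 was higher in scKO and its cluster neighbours were not called. Ifit3 had 54 counts in scKO and 27 in flox/flox, 2.07-fold higher (log2 ratio 1.04, 0.36 to 1.77). Ifit2 had 44 counts in scKO and 41 in flox/flox (0.15, −0.49 to 0.80), and Ifit1 had 12 in scKO and 18 in flox/flox (−0.51, −1.72 to 0.60). Ifit3 (chromosome 19, 34583531 to 34588731, plus strand, GRCm38) is 7111 bases from Ifit2 and 19238 bases from Ifit3b, a near-identical copy that shares 51.2% of the 50-base stretches of Ifit3. Ifit3b itself had 80 counts in scKO and 58 in flox/flox (0.51, 0.01 to 1.03). How the authors divided reads that match both genes is not given in the sources used here. Summed, the pair had 134 counts in scKO and 85 in flox/flox, 1.63-fold higher (0.70, 0.31 to 1.12), which no longer reaches 2-fold; nor did Ifit3 alone on the log2(FPKM + 1) scale, at 0.66.

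The promoter windows of both genes are shown because the genes lie in 1 cluster, share sequence and both had intervals above 0; Ifit3b, Cmpk2, Ifitm3 and Ifitm2, whose windows are also given, were picked after their values were seen. They come from RefSeq (GRCm38.p6), span 250 bases before to 50 bases after the transcription start, and run 5′ to 3′ on the strand of the gene. Capitals mark the interferon-stimulated response element, searched as GAAANNGAAA on both strands. The windows share a run of 169 identical bases, which holds both elements. The first is chr19:34583279-34583578 and the second chr19:34607707-34608006, both on the plus strand.
Ifit3: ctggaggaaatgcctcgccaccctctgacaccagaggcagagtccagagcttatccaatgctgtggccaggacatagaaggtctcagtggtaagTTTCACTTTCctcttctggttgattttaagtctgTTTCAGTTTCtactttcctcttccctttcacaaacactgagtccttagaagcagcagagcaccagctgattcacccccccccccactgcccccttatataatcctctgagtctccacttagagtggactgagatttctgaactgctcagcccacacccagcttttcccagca
Ifit3b: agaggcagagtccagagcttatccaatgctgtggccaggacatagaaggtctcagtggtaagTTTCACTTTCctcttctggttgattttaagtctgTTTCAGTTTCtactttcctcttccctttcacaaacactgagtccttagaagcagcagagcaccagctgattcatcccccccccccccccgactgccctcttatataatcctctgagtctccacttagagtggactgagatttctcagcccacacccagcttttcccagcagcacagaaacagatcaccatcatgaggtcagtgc
In these windows the elements, on the minus strand, begin 156 and 122 bases before the start of Ifit3 and 188 and 154 bases before that of Ifit3b.

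The genes of ISG15 conjugation, ubiquitin and ADP-ribose transfer showed no difference beyond counting error under TMM scaling. Isg15, the ubiquitin-like modifier, had 9 counts in scKO and 10 in flox/flox, which cannot show a difference at this depth. Usp18, which removes ISG15 from proteins and dampens IFNAR signalling, had 30 counts in scKO and 33 in flox/flox (−0.08, −0.85 to 0.67). Trim25, the ubiquitin ligase that acts on RIG-I, had 146 in scKO and 160 in flox/flox (−0.08, −0.41 to 0.25). Parp9 and Dtx3l, whose products form 1 complex, had 98 and 137 counts in scKO and 108 and 178 in flox/flox. Their log2 ratios were −0.09 (−0.50 to 0.32) for Parp9 and −0.33 (−0.66 to 0.003) for Dtx3l, whose interval lay just below 0 with DESeq2 size factors (−0.67 to −0.01). These genes lie head to head on chromosome 16 with 458 overlapping exon bases on opposite strands, and the strand setting of the counting is not given. Parp14, an ADP-ribosyltransferase farther along the same cluster, had 136 counts in scKO and 146 in flox/flox (−0.05, −0.40 to 0.30). All 5 tested genes of this group had ratios below 0, and all 5 intervals included 0.

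Rsad2, which encodes viperin, an enzyme that converts CTP into a chain-terminating nucleotide, showed the highest ratio of the 33 tested genes. It had 64 counts in scKO and 19 in flox/flox, 3.49-fold higher (log2 ratio 1.78, 1.05 to 2.62), or 0.955 FPKM in scKO and 0.267 FPKM in flox/flox. On the log2(FPKM + 1) scale, which understates the change of low genes, its ratio was 0.63 and no longer reached 2-fold. Rsad2 lies on the minus strand of chromosome 12 at 26442746 to 26456452 (GRCm38), 60490590 bases from Cipc on the same chromosome, and no annotated exon of another gene overlaps it. Cmpk2, the gene of a mitochondrial UMP-CMP kinase, lies 12751 bases away on the opposite strand. It had 26 counts in scKO and 31 in flox/flox (−0.20, −1.01 to 0.60), an interval that does not overlap that of Rsad2. Samhd1, whose product breaks down deoxynucleotides, was lower in scKO, with 298 counts in scKO and 416 in flox/flox (−0.43, −0.65 to −0.21). The 3 genes of nucleotide metabolism therefore had ratios in both directions.

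The promoter windows of this divergent pair, again from RefSeq (GRCm38.p6), are given because the neighbours differed in ratio. The Rsad2 window is chr12:26456403-26456702 on the minus strand and the Cmpk2 window chr12:26468965-26469264 on the plus strand, with response elements in capitals.
Rsad2: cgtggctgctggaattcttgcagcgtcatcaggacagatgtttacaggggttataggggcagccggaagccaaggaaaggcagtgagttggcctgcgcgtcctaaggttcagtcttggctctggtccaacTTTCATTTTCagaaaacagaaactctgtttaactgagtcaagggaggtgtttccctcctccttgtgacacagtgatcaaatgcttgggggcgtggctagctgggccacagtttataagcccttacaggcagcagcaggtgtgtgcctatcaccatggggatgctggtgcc
Cmpk2: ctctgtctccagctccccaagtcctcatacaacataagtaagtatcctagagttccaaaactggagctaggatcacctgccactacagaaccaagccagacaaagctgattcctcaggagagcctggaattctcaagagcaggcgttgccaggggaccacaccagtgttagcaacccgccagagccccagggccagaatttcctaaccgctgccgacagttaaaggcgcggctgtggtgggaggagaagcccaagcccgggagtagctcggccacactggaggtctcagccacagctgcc
The Rsad2 window holds 1 match to the element, on the minus strand of the gene, beginning 120 bases before the start. These letters do not occur in the Cmpk2 window.

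Of the guanylate-binding proteins, GTPases that attack the membranes around intracellular pathogens, none of the 3 members had an interval that excluded 0. Gbp3 had 99 counts in scKO and 76 in flox/flox (0.43, −0.01 to 0.88), with an interval just above 0 under total-count scaling (0.02 to 0.92). Gbp7 had 337 in scKO and 325 in flox/flox (0.10, −0.12 to 0.33), and Gbp2 had 90 in scKO and 104 in flox/flox (−0.16, −0.58 to 0.26). Of the 7 other genes of this family in the pathway list, Gbp5, Gbp4 and Gbp9 had intervals above 0. Gbp5, which lies in the same cluster on chromosome 3, 98257 bases from Gbp2, had 116 counts in scKO and 49 in flox/flox (1.29, 0.80 to 1.81). Gbp4 had 163 in scKO and 100 in flox/flox (0.75, 0.39 to 1.13), and Gbp9 had 229 in scKO and 183 in flox/flox (0.37, 0.09 to 0.66). The intervals of Gbp10, on 24 counts in scKO and 17 in flox/flox (0.54, −0.41 to 1.54), and Gbp6, on 73 in scKO and 84 in flox/flox (−0.15, −0.62 to 0.32), included 0. Gbp10 shares 84.1% and Gbp6 70.7% of its 50-base stretches with other annotated transcripts, so the counts of both are uncertain. Gbp8 had 1 count in scKO and 0 in flox/flox, and Gbp2b had 0 in both.

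The immunity-related GTPases Tgtp1 and Tgtp2 were also higher in scKO. Tgtp2 had 77 counts in scKO and 23 in flox/flox (1.77, 1.11 to 2.53), and Tgtp1 had 55 in scKO and 25 in flox/flox (1.17, 0.48 to 1.93). Tgtp2 shares 85.8% of its 50-base stretches with Tgtp1, so their separate counts are uncertain; summed, they had 132 counts in scKO and 48 in flox/flox, 2.85-fold higher (log2 interval 1.02 to 2.02). Igtp had 139 counts in scKO and 89 in flox/flox (0.69, 0.30 to 1.09). Irgm1 stood at 0.08 on 180 counts in scKO and 177 in flox/flox, and Irgm2 at −0.20 on 181 in scKO and 216 in flox/flox. Iigp1 stood at 0.12 on 165 in scKO and 157 in flox/flox. Ifi47 had 9 counts in scKO and 12 in flox/flox, with an interval that included 0 (−0.34, −1.79 to 1.01). The lists hold 17 interferon-inducible GTPases, a grouping made after their values were seen, of which 15 were tested. Of the 15, 6 had intervals above 0 and none below, against 12.8% and 12.3% of all tested genes. Tgtp1 and Tgtp2, the pair with shared sequence, make up 2 of the 6. The median log2 ratio of the 15 was 0.37, beside 0.002 for all tested genes.

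**Figure D3:**
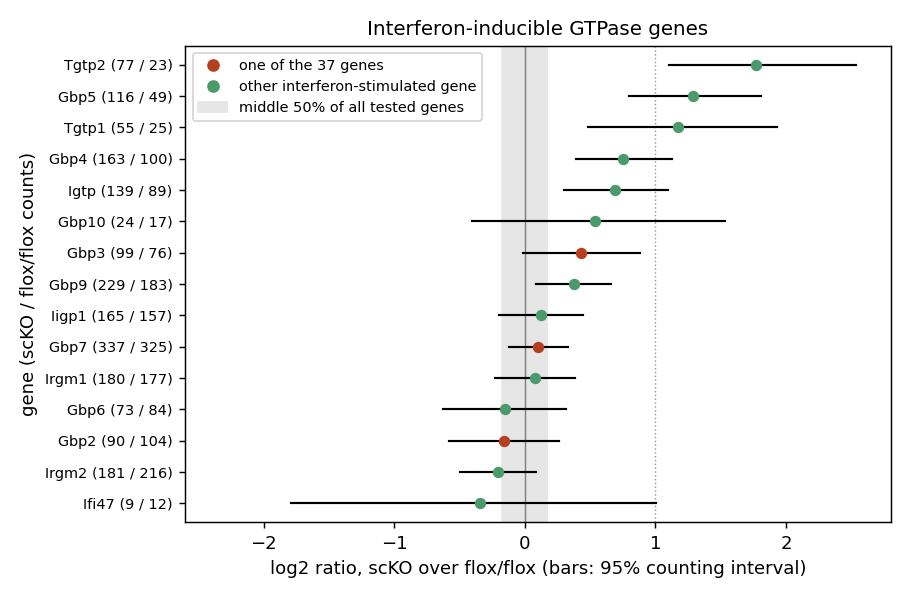
Log2 ratio of scKO over flox/flox for the 15 tested interferon-inducible GTPase genes (x axis), with 95% counting intervals and the counts of the scKO and flox/flox libraries beside each name; the grey band holds the middle 50% of all tested genes. Tgtp2, Gbp5 and Tgtp1 lie beyond 2-fold (dotted line), and the 3 genes among the 37, Gbp2, Gbp3 and Gbp7, have intervals that include 0.

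Ifitm3 was higher in scKO and Ifitm2, 53598 bases away on chromosome 7, was not. Ifitm1, which lies between them, had 6 counts in scKO and 11 in flox/flox. Ifitm3 had 219 counts in scKO and 146 in flox/flox, 1.55-fold higher (0.63, 0.33 to 0.95). Ifitm2 had 241 counts in scKO and 266 in flox/flox (−0.09, −0.35 to 0.17), and the intervals of the pair do not overlap. Ifitm3 shares 10.02% of its 50-base stretches with other annotated transcripts. For Ifitm2 the share is 48.5%, of which Gm45717, a gene that overlaps it on the same strand, accounts for 36.1%, so the Ifitm2 count is the less certain. Bst2, the gene of tetherin, which holds budding virus at the cell surface, had 66 counts in scKO and 71 in flox/flox (−0.05, −0.56 to 0.45). Rtp4, whose product assists receptor transport, had 33 counts in scKO and 26 in flox/flox (0.39, −0.39 to 1.19).

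The promoter windows of Ifitm3 and Ifitm2 are shown because these genes, like Rsad2 and Cmpk2, differed in ratio. Both are on the minus strand of chromosome 7 (RefSeq, GRCm38.p6), at chr7:141010695-141010994 for Ifitm3 and chr7:140955912-140956211 for Ifitm2. Capitals mark the response element and the gamma-activated site, searched as TTCNNNGAA, which reads the same on both strands.
Ifitm3: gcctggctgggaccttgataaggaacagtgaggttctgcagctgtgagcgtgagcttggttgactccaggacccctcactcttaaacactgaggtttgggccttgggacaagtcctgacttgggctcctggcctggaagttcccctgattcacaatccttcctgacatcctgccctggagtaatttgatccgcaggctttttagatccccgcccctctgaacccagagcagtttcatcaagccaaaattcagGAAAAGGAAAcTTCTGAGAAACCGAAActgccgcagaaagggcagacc
Ifitm2: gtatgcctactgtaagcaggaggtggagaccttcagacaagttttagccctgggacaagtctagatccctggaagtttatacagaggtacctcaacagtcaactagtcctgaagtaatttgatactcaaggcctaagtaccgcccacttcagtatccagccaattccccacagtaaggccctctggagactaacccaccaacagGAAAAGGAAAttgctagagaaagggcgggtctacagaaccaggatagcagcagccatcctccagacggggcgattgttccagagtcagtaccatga
In Ifitm3 both elements follow the annotated start, at bases 3 to 12 and 20 to 29, and the gamma-activated site, at bases 14 to 22, overlaps the second. In Ifitm2 the single element begins 46 bases before the start, and no letters of the gamma-activated site occur in the window.

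Of the remaining genes, the 3 tested had intervals that included 0. Ifi27 had 170 counts in scKO and 150 in flox/flox (0.23, −0.09 to 0.56), Ifi35 had 123 in scKO and 140 in flox/flox (−0.13, −0.50 to 0.22), and Xaf1, a pro-apoptotic interferon target, had 51 in scKO and 53 in flox/flox (0.00, −0.59 to 0.58). Ifi44 had 6 counts in scKO and 11 in flox/flox (−0.77, −2.54 to 0.74) and was not tested.

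Interferon genes themselves were not detected, whereas their receptors and kinases were. All 10 ligands examined (Ifnb1, Ifna1, Ifna2, Ifna4, Ifna5, Ifnk, Ifne, Ifng, Ifnl2 and Ifnl3) had 0 counts in both libraries, which allows up to 0.217 CPM each in scKO and 0.204 CPM in flox/flox, for counting error only. Ifnar1 had 211 counts in scKO and 164 in flox/flox (0.41, 0.11 to 0.72), and Ifnar2 had 83 in scKO and 80 in flox/flox (0.10, −0.36 to 0.57). Ifngr1 had 307 counts in scKO and 283 in flox/flox (0.17, −0.07 to 0.41), and Ifngr2 had 1059 in scKO and 1046 in flox/flox (0.07, −0.06 to 0.19). Il10rb, a subunit shared with the interferon lambda receptor, had 57 in scKO and 43 in flox/flox (0.45, −0.14 to 1.06), and Ifnlr1, the specific subunit, had 0 in scKO and 3 in flox/flox. Jak1 was slightly lower, with 2357 counts in scKO and 2696 in flox/flox (−0.14, −0.22 to −0.06). Jak2 stood at −0.06 (−0.16 to 0.05) and Tyk2 at −0.08 (−0.43 to 0.26). By FPKM the receptor subunit Ifngr2, at 21.8 in scKO and 20.3 in flox/flox, exceeded Ifnar1, at 1.57 in scKO and 1.15 in flox/flox, and Ifnar2, at 0.981 in scKO and 0.888 in flox/flox.

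The other IRF and STAT genes numbered 9, of which 8 were tested, 3 had intervals above 0 and none below, against 12.8% and 12.3% of all tested genes. Among all tested genes with at least 1000 counts, the range of Stat5b, the share above 0 was 23.1%. Irf5, which drives inflammatory cytokine genes in macrophages, had 56 counts in scKO and 37 in flox/flox (0.64, 0.02 to 1.29), Stat5a had 236 in scKO and 197 in flox/flox (0.31, 0.03 to 0.59), and Stat5b had 2540 in scKO and 2391 in flox/flox (0.14, 0.06 to 0.22). The STAT5 pair relays growth hormone and cytokine signals. Stat3 stood at 0.09 (−0.08 to 0.26) and Stat6 at −0.04 (−0.28 to 0.20). Of 13 further sensors and adaptors, 9 were tested, 1 had an interval below 0 and none above, beside the same 12.3% and 12.8%. That gene, Traf3, an adaptor of the kinases that activate IRF3, had 200 counts in scKO and 321 in flox/flox (−0.63, −0.89 to −0.37). Myd88, the adaptor of most Toll-like receptors, stood at −0.25 (−0.82 to 0.30) and the ubiquitin ligase gene Traf6 at −0.19 (−0.45 to 0.06). Mavs, the mitochondrial adaptor of RIG-I and MDA5, stood at 0.13 (−0.03 to 0.29) and the kinase gene Tbk1 at −0.06 (−0.35 to 0.23). Of 7 negative regulators, all tested, 3 had intervals above 0 and 1 below, beside the same 12.8% and 12.3%. Socs1, an inhibitor of Janus kinases, was the one at least 2-fold higher, against 1.49% of all tested genes, on 30 counts in scKO and 11 in flox/flox (1.46, 0.46 to 2.64). Among tested genes with a summed count of 20 to 100, the range of Socs1, that share was 4.57%. Ptpn2, a phosphatase of Janus kinases and STATs, had 202 in scKO and 165 in flox/flox (0.34, 0.04 to 0.65). Ptpn11, the gene of the phosphatase SHP2, stood at 0.10 (0.01 to 0.20) and Pias1, the gene of a SUMO ligase, at −0.05 (−0.32 to 0.21). Trex1, an exonuclease that clears cytosolic DNA, had 34 counts in scKO and 66 in flox/flox (−0.90, −1.55 to −0.29), but 95.8% of its 50-base stretches also belong to Atrip transcripts, so its reads cannot be assigned with certainty.

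Beyond the 37 genes, 73 other interferon-stimulated genes were listed, of which 54 were tested. Of these, 3 were at least 2-fold higher in scKO (Tgtp2, Gbp5 and Tgtp1) and none at least 2-fold lower, against 1.49% and 1.91% of all tested genes, and 2 of the 3 are the pair with shared sequence. Intervals lay above 0 for 11 and below 0 for 1, against 12.8% and 12.3%. Their median log2 ratio was 0.09, beside 0.002 for all tested genes. Besides the GTPases and Ifit3b, those above 0 were Cxcl9 on 36 counts in scKO and 21 in flox/flox, Ifi203 on 133 in scKO and 82 in flox/flox, Shisa5 on 146 in scKO and 103 in flox/flox, and Sp100 on 180 in scKO and 139 in flox/flox. Their log2 ratios were 0.81 for Cxcl9, 0.75 for Ifi203, 0.55 for Shisa5 and 0.42 for Sp100. Tor3a was the gene below 0, with 67 counts in scKO and 117 in flox/flox (−0.75, −1.21 to −0.31). Some widely used markers of an interferon response, named after their values were seen, were low in both libraries. Mx1 had 3 counts in scKO and 5 in flox/flox, Cxcl10 had 1 in scKO and 7 in flox/flox, and Oas2 had 26 in scKO and 30 in flox/flox. Mx2, Oasl1 and Ccl5, also low, leaned the other way. Mx2 had 12 counts in scKO and 5 in flox/flox, and Oasl1 and Ccl5 each had 4 in scKO and 1 in flox/flox. The intervals of all of these markers included 0, whereas those of Rsad2, Ifit3 and Cxcl9 lay above 0.

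**Figure D4:**
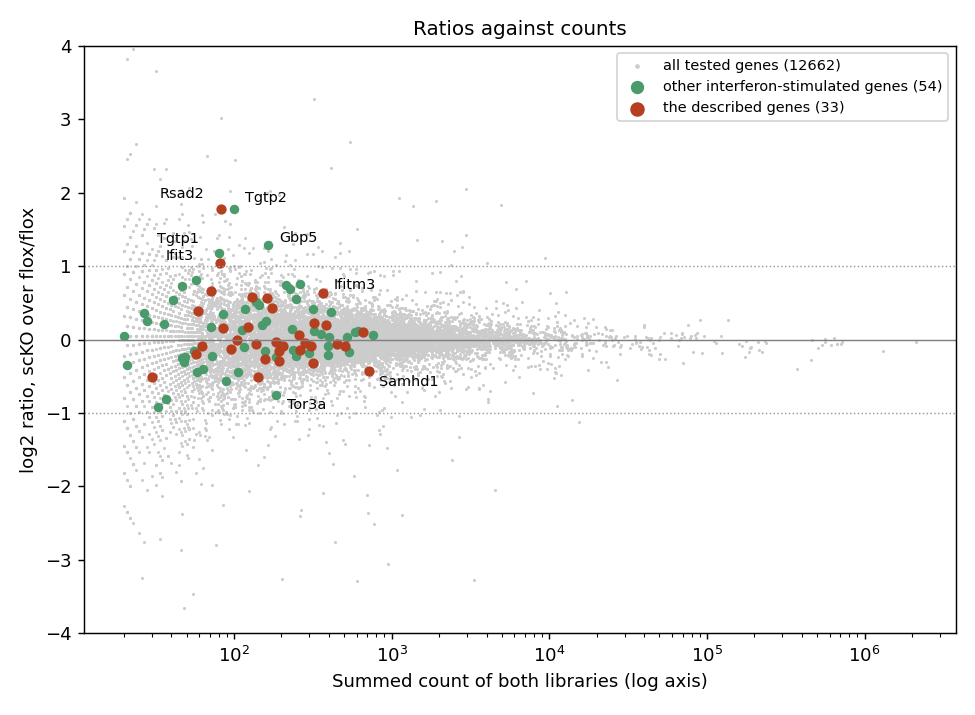
Log2 ratio of scKO over flox/flox (y axis) against the summed count of both libraries (x axis, logarithmic) for all 12662 tested genes (grey), the 54 other interferon-stimulated genes (green) and the 33 tested genes of the 37 (red); 18 genes lie outside the y axis. The spread of all genes narrows as counts rise, and Rsad2, Ifit3, Tgtp1, Tgtp2 and Gbp5 stand above the 2-fold line at fewer than 200 summed counts.

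Response elements were frequent in the promoters of the 37 genes, and genes with and without one had overlapping ratios. RefSeq windows were matched for 31 of the 37 genes; Dhx58, Ifi27, Parp14, Parp9, Rtp4 and Usp18 had none in the table. At least 1 response element stood in a window of 16 of the 31 genes (51.6%), against 3.99% of 27025 genes with a window. The gamma-activated site stood in windows of 12 of the 31 (38.7%), against 9.55% of all. Of the 73 other interferon-stimulated genes, 57 had a window. The response element stood in windows of 31 of these 57 (54.4%) and the gamma-activated site in windows of 8 (14.035%). The response element was thus about as frequent there as among the 37, and the gamma-activated site was less frequent. Among tested genes of the 37 with a window, the 14 with a response element had log2 ratios from −0.51 to 1.78 with a median of 0.004, and the 14 without had ratios from −0.50 to 0.66 with a median of −0.05. Both genes called at least 2-fold higher, Rsad2 and Ifit3, held the element, as did Isg15, whose window has 3 overlapping copies beginning 78, 72 and 66 bases before the start and which had 9 counts in scKO and 10 in flox/flox. A match describes letters in the window and does not show that a factor binds there. A window without a match may still hold a site that departs from these letters.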

How the data were processed

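RNA sequencing covered 1 scKO and 1 flox/flox library of gastrocnemius. The authors deposited raw counts per Ensembl gene and FPKM values, per the file headers. The submitters' processing notes name CASAVA, HISAT2 2.0.4, StringTie 1.3.0 and the build GRCm38; annotation release, multi-mapping and strand settings are not given in the sources used here. The deposited FPKM gave the same implied gene length in both libraries to within 0.0363%, so FPKM served for levels between genes and counts for ratios.

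Symbols were matched for 34267 of 34745 identifiers. Counts were scaled by TMM (edgeR 4.0.16, R 4.3.3). Log2 ratios used a prior count of 0.5, and exact conditional binomial 95% intervals were computed with scipy 1.17.1. With 1 library per genotype no p-value was computed. A gene was called where it was at least 2-fold apart and its interval excluded a log2 ratio of 0. Genes needed 20 summed counts to be tested. A limit for 0 counts is 3 counts. The procedure was tested on simulated counts. Positions, exon overlap and 50-base stretches shared between transcripts came from GENCODE M21 (GRCm38), and promoter windows from RefSeq. All 37 genes were to be named, with every ligand, receptor and Janus kinase, every called gene and the up to 4 genes of each further list with the largest absolute ratio among those with at least 100 counts; others, such as Tbk1 and the GTPases below 2-fold, were named after their values were seen. The members and lists were chosen with earlier results of these data known.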

Additional observations from a re-analysis of the deposited data

How the results depend on the processing

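Total-count scaling, DESeq2 size factors (DESeq2 1.42.0), TMM without mitochondrial genes, other count filters, a prior count of 5 and FPKM scales were compared with the values above. Scaling shifted the median of all tested genes by at most 0.0383 on the log2 scale. Values for single genes among the 37 numbered 256. Of these, 33 came from no count filter and 24 from a minimum of 100 summed counts. A filter does not change the ratio of a gene, so these values could only stay the same. Of the 256, 255 stayed within their counting interval and none with an interval that excludes 0 changed sign. The 1 that moved was Rsad2, to 0.63 with FPKM plus 1. On that scale Cipc stood at −1.58, and no gene of the 37 and none of the other interferon-stimulated genes was at least 2-fold higher (0 and 0). A minimum of 100 summed counts removes Rsad2 and Ifit3 and left 0 genes at least 2-fold higher and 3 with intervals above 0, while no count filter adds Oas1a and gave 3 and 6. With total-count scaling 1 gene of the 37 had an interval below 0 and 6 above, Gbp3 being added (0.02 to 0.92), and with DESeq2 size factors 3 had one below 0, Dtx3l being added (−0.67 to −0.01). Summing Ifit3 with Ifit3b, chosen after seeing the data, left 1 gene at least 2-fold higher. A 1.5-fold threshold gave 4 higher genes among the 37, and 7 higher and 1 lower among the other interferon-stimulated genes. The median of the tested genes among the 37 lay between −0.06 and −0.01 over all settings run. It was taken over 24 genes with a minimum of 100 summed counts, all 37 with no count filter and 33 otherwise. No paired analysis was possible because each genotype has 1 library, and for the same reason no replicate could be left out. Genes with fewer than 20 summed counts, Isg15, Dhx58, Oas1a and Ifi44 among the 37, are limited by depth.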
